A study of Mus musculus with 24 samples.

Results

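Nos2, Chil3, Retnla, Ly6c2, Plac8, Msr1 and Marco are genes that mouse monocytes and macrophages use when they enter tissue and become activated. They were chosen by name for that role, with earlier results of these data known. All 7 were found among the 56065 genes with deposited values. The libraries were labelled as choroid, the vascular layer behind the retina, of mice with and without laser treatment. In the study's dissections this name covers the retinal pigment epithelium and sclera as well. Wild type mice and Ceacam1-/- mice, in which exons 1 and 2 of Ceacam1 are deleted, were compared. CEACAM1 is an adhesion receptor of endothelial, epithelial and immune cells. There were 4 libraries of wild type choroid without laser, 9 of wild type choroid with laser, 4 of Ceacam1-/- choroid without laser and 7 of Ceacam1-/- choroid with laser. Both genotypes were on the C57BL/6J background, wild type animals were littermates from heterozygous matings, and the study's mice were 6 to 8 weeks old unless stated otherwise. The laser protocol placed 6 spots per eye at 150 mW, 200 µm and 100 ms to induce choroidal neovascularization. The time between laser and dissection, the sex of each animal, and whether eyes or animals were pooled were not given in the sources used here, so p-values measure the spread between these libraries.

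Monocytes that leave the blood at a site of injury carry Ly6C on their surface and then turn into macrophages whose activation depends on local signals. Interleukin 4 and interleukin 13 act through STAT6 and induce Chil3 and Retnla, while interferon gamma and bacterial products induce Nos2. Scavenger receptors such as those encoded by Msr1 and Marco take up modified lipoproteins, debris and microbes, and in the eye such cells gather around laser lesions and growing choroidal vessels.

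All values are normalized counts, that is, estimated reads per gene divided by a size factor for each library. Their sum ranged from 23704346 to 35094410 per library, and 25021 to 27964 genes were above 0 in each. A fold change is on the scale of log2(normalized count + 1), and a gene was called when its Benjamini-Hochberg adjusted p in limma, a linear model with a shared estimate of variance fitted across all genes, was under 0.05. Genes with a mean under 10 were not tested, which left out Marco, with a mean of 5.87 over the 24 libraries. The other 6 genes were tested among 19950 genes for the laser comparisons.

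The knocked-out gene itself, Ceacam1 (ENSMUSG00000074272), was lower in the Ceacam1-/- libraries. Without laser, Ceacam1 stood at 958, 1242, 4596 and 5027 normalized counts in wild type and at 405, 505, 508 and 1171 in Ceacam1-/-. With laser, wild type ranged from 774 to 8367 with a median of 996, and Ceacam1-/- from 67.8 to 905 with a median of 335. The ranges overlapped through libraries 28 and 15 of the Ceacam1-/- mice, which had the 2 highest levels of the keratin Krt5. The values cover the whole gene, including exons that were not deleted. The log2 difference of Ceacam1-/- from wild type was -1.95 ± 0.598 (SE) without laser and -2.17 ± 0.517 with laser, with limma's adjusted p of 0.999 and 0.104.

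The tissue pieces differed in what they held beside the retinal pigment epithelium, choroid and sclera. Krt5, a keratin of the basal layer of surface epithelium, ranged from 2.36 to 97240, and it was above 10000 in libraries 15 (Ceacam1-/- with laser), 19 (wild type with laser), 22 and 27 (wild type without laser) and 28 (Ceacam1-/- without laser). The summed value of 5 photoreceptor genes, led by the rod transducin gene Gnat1, ranged from 2128 to 523187, and it was above 200000 in libraries 14, 15 and 18 (Ceacam1-/- with laser), 21 (wild type without laser) and 23 (Ceacam1-/- without laser), here called photoreceptor-rich. Results were therefore also computed without each of these sets of 5 libraries, which were chosen after the data were seen. Plvap, a gene of fenestrated endothelium as found in the choriocapillaris, was between 1051 and 15720 in every library, and Ttr, of the retinal pigment epithelium, was between 15913 and 485527.

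After laser, 4 of the 6 tested genes were higher in wild type choroid, namely Chil3, Msr1, Ly6c2 and Nos2, against a background of 4.23% of all tested genes. None of the 6 was lower, where 1.05% of tested genes were, and limma at an unadjusted p under 0.05 gave the same 4, beside 3993 of the 19950 tested genes. In Ceacam1-/- choroid, 3 of the 6 were higher (Chil3, Msr1 and Ly6c2), against 2.07% of all tested genes, and none was lower, where 1.65% were. The median log2 fold change of the 6 genes was 1.75 in wild type and 1.47 in Ceacam1-/-, beside -0.10 and 0.02 for all tested genes. In bulk tissue, more cells of a type and more RNA per cell cannot be told apart. With the 11 Ceacam1-/- libraries alone in the fit, Chil3 was called (adjusted p = 0.0317, limma) and Ly6c2 and Msr1 were not (0.0653 and 0.122). Every library with laser was above every library without for 5 of the 7 genes in wild type (Nos2, Chil3, Ly6c2, Msr1 and Marco), where 4.50% of tested genes had such a separation. The same held for 3 of the 7 genes in Ceacam1-/- (Chil3, Ly6c2 and Msr1), where 1.17% of tested genes had it. As the genes were chosen with earlier results of these data known, these shares describe the background and do not test the set.

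**Figure D1:**
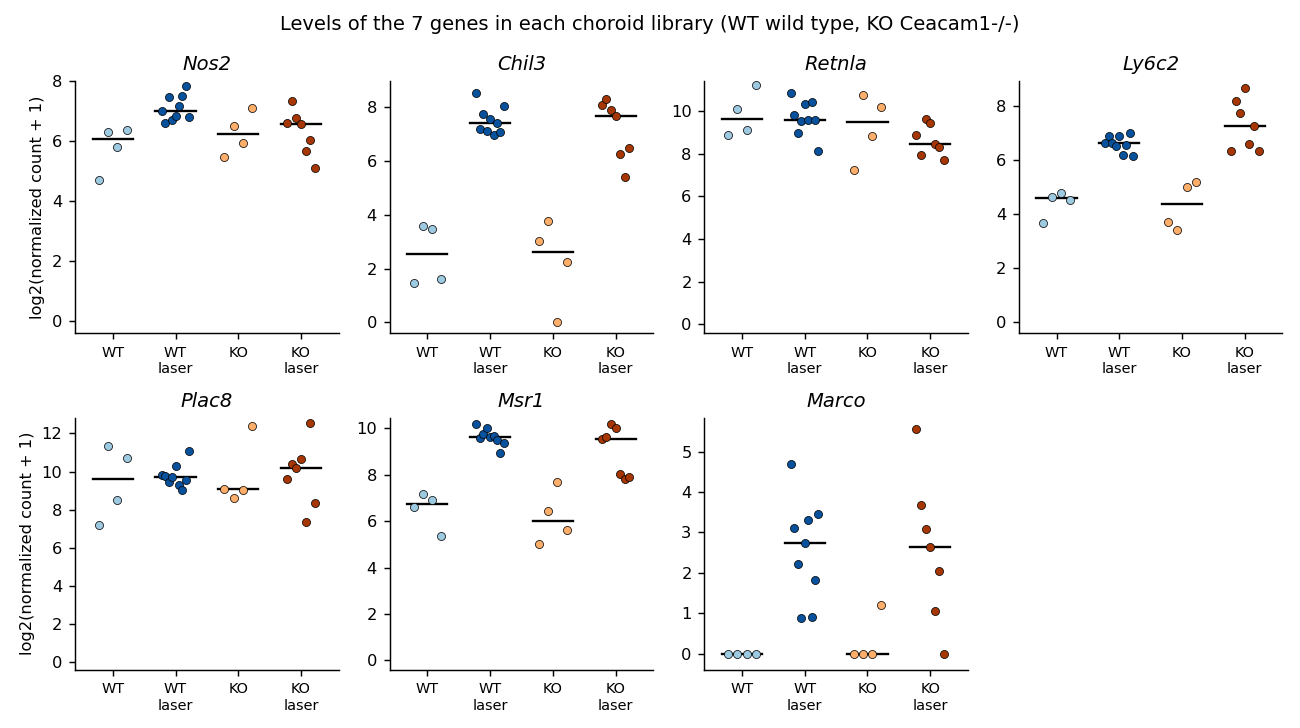
Each point is the log2(normalized count + 1) of 1 library, in 4 groups (wild type, WT, and Ceacam1-/-, KO, each without and with laser), and the bar is the group's median. Chil3, Ly6c2 and Msr1 lie higher in all laser libraries of both genotypes, Marco is at 0 in the 4 wild type libraries without laser, and Retnla and Plac8 overlap between all groups.

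Nos2 (ENSMUSG00000020826, chr11:78811613-78851080 of GRCm39, plus strand, 27 exons) encodes inducible nitric oxide synthase, which uses arginine to make nitric oxide. Its wild type libraries had 25.4, 55.6, 79.0 and 82.7 normalized counts without laser and 97.5 to 230, with a median of 127, with laser. The Ceacam1-/- libraries had 43.0, 60.2, 90.8 and 136 without laser and 33.1 to 163, with a median of 93.3, with laser. The wild type groups were therefore apart, by a narrow margin, and the Ceacam1-/- groups overlapped over most of their range. Its log2 fold change came to 1.29 ± 0.384 in wild type (adjusted p = 0.0495, limma) and 0.05 ± 0.400 in Ceacam1-/- (adjusted p = 0.955, limma; 95% interval -0.78 to 0.88). The difference between these changes was -1.25 ± 0.555, with an adjusted p of 0.640 for the interaction in limma, so a difference between genotypes was not shown. The wild type call was lost without any 1 of the 24 libraries other than 5, 14, 18, 23 and 28, with log2 fold changes between 0.93 (without library 21) and 1.49 and adjusted p-values up to 0.257. Without the 5 Krt5-rich or the 5 photoreceptor-rich libraries its log2 fold change in wild type was 1.87 or 0.93 (adjusted p = 0.0531 or 0.0582, limma). Within the 3 photoreceptor-rich Ceacam1-/- libraries with laser (14, 15 and 18), Nos2 was 50.6, 64.7 and 33.1, the lowest 3 of that group, and whether photoreceptor RNA played a part was not tested.

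**Figure D2:**
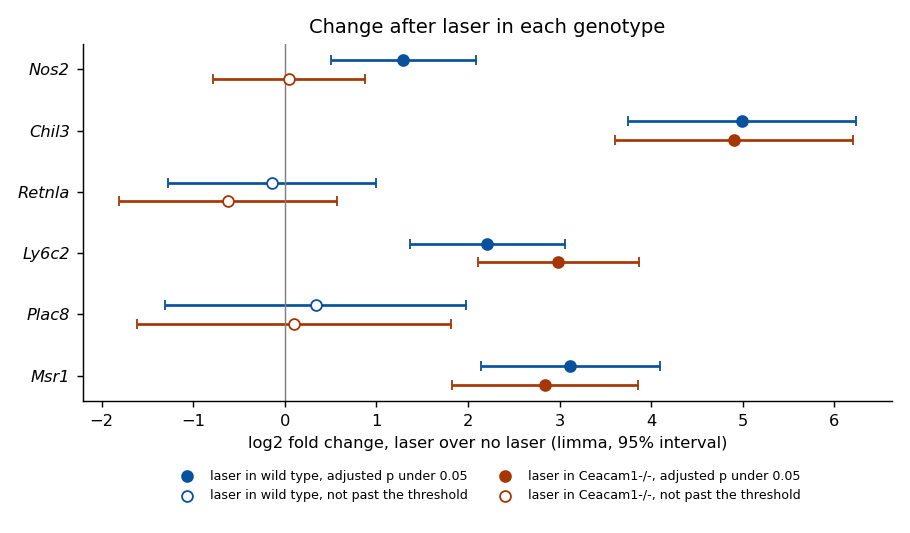
Log2 fold change of 6 genes after laser (x axis) in wild type (blue) and Ceacam1-/- choroid (brown) with limma's 95% interval; filled points have an adjusted p under 0.05. Chil3, Ly6c2 and Msr1 are filled in both genotypes, Nos2 in wild type alone with a difference between genotypes that did not pass the test (adjusted p = 0.640, limma), and Retnla and Plac8 in neither.

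Genes of the chitinase-like and resistin-like secreted proteins went separate ways. Chil3 (ENSMUSG00000040809, chr3:106054870-106074880, minus strand, 11 exons), also known as Ym1, encodes a lectin secreted by alternatively activated macrophages. Its wild type libraries without laser had 1.75, 2.07, 10.2 and 11.1 normalized counts, and those with laser ranged from 126 to 375 with a median of 170. In Ceacam1-/- the libraries had 0, 3.72, 7.08 and 12.6 without laser and 41.4 to 317, with a median of 202, with laser. The groups were apart in both genotypes, and the 3 lowest laser libraries of Ceacam1-/- (15, 14 and 18, at 41.4, 75.2 and 89.1) were the photoreceptor-rich ones. The log2 fold change was 4.99 ± 0.601 in wild type (adjusted p = 1.74e-05, limma) and 4.90 ± 0.627 in Ceacam1-/- (adjusted p = 0.000119, limma). These were the smallest adjusted p-values among the 6 genes in both genotypes. Since the values without laser were low, the fold change depends on the added count: with 10 in place of 1 it was 3.63 in wild type and 3.34 in Ceacam1-/-, and both passed the threshold in limma.

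Chil3 has near copies, and 44.8% of the 31-base words of its transcript also occur in other genes, namely Chil4 (31.15%), Gm6522 (25.98%), Chia1 (0.66%) and Chil5 (0.13%). Chil4 was at 0 in 23 of the 24 libraries and at 0.975 in the remaining one, Gm6522 was at 0 in all 24, and Chia1 and Chil5 reached at most 16.6 and 9.58. How reads were split among these genes could not be checked from the deposited values. Chil1, a related chitinase-like gene of macrophages and other cells known in humans as YKL-40, was also higher after laser in wild type (log2 fold change 2.16, adjusted p = 0.0279, limma) and in Ceacam1-/- (2.34, adjusted p = 0.0316, limma). Without the 5 Krt5-rich libraries, Chil1 was not called in wild type. Among the 8 other members of the chitinase and resistin families, 4 were tested and Chil1 alone was called in either genotype. Chid1, a chitinase-domain protein of broad expression, and Retn, which encodes resistin of fat tissue, gave log2 fold changes of 0.46 and -1.41 in wild type and 0.15 and -0.18 in Ceacam1-/-, none of them called.

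Retnla (ENSMUSG00000061100, chr16:48662895-48664824, plus strand, 4 exons) encodes RELM alpha, a secreted product of macrophages exposed to interleukin 4. Its wild type libraries had 470, 545, 1097 and 2345 normalized counts without laser and 275 to 1798, with a median of 768, with laser. In Ceacam1-/- they had 149, 453, 1147 and 1687 without laser and 205 to 794, with a median of 351, with laser. All 4 groups overlapped. The log2 difference of laser from no laser was -0.14 ± 0.551 in wild type (95% interval -1.28 to 1.00) and -0.62 ± 0.575 in Ceacam1-/- (-1.81 to 0.57), with adjusted p-values of 0.903 and 0.574 in limma. In wild type it was 0.89 without the 5 Krt5-rich libraries. Retnla was thus abundant without laser, at a median of 1328 normalized counts per kilobase of transcript in wild type, where Chil3 was at 3.98 per kilobase.

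Promoter sequences from 250 bases before to 50 bases after the start site were in the RefSeq table (GRCm38.p6) for 5 of the 7 genes, namely Chil3, Retnla, Ly6c2, Plac8 and Marco. They are shown for the 3 of these genes that separated by laser in wild type and for Retnla, which did not, 5′ to 3′ on the gene's strand. Capitals mark matches, on either strand, to 6 short motifs: GAGGAA, the core bound by the myeloid factor PU.1; TTGCNNCAA of the C/EBP family; TGANTCA of AP-1; TTCNNNNGAA of STAT6; TATAAA, the TATA box, added after the sequences were seen; and ACGTG of hypoxia-inducible factors.
Chil3 (chr3:106167515-106167814, minus strand): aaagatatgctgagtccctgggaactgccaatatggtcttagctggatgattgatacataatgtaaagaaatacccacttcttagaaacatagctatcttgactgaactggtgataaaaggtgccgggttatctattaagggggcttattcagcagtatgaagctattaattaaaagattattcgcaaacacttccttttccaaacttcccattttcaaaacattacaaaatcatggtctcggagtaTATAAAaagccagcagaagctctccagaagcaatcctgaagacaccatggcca
Ly6c2 (chr15:75111922-75112221, minus strand): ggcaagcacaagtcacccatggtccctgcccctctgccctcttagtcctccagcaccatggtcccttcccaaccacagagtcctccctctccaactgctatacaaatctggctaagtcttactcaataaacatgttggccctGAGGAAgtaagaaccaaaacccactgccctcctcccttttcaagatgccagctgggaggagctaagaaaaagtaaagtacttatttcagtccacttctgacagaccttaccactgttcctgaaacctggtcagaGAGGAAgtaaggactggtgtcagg
Marco (chr1:120504975-120505274, minus strand): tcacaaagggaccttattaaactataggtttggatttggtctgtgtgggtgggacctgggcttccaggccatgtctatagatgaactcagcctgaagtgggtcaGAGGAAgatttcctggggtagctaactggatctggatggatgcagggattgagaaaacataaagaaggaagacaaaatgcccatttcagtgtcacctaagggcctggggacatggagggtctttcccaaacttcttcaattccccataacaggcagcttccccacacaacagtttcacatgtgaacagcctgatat
Retnla (chr16:48842359-48842658, plus strand): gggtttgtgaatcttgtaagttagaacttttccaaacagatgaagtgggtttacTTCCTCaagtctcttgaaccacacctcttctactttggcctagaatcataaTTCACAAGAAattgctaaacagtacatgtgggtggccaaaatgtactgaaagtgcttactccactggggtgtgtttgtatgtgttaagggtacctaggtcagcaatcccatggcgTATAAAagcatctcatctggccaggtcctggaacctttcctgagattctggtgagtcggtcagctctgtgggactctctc

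The Chil3 promoter held 1 match to the TATA box, Ly6c2 held 2 to PU.1, Marco 1 to PU.1, and Retnla 1 each to PU.1, STAT6 and the TATA box. Plac8, which did not separate by laser either and is not shown, held 2 matches to PU.1 at its start site 1. Its start site 2 held 1 each to STAT6 and the hypoxia motif, and start site 2 of Ly6c2, also not shown, held 2 to PU.1. Of 32851 promoters of the same length, 28.3% held the PU.1 motif, 7.0% the STAT6 motif, 13.6% the TATA box, 7.8% the AP-1 motif, 19.6% the hypoxia motif and 2.1% the C/EBP motif. Matches of this length are a description only.

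Of the genes that mark blood monocytes, Ly6c2 was called higher after laser and Plac8 was not called. A difference between the 2 genes was not tested. Ly6c2 (ENSMUSG00000022584, chr15:74980003-74988467 of GRCm39, minus strand, 4 exons) encodes the Ly6C antigen of inflammatory monocytes. Its wild type libraries had 11.8, 22.4, 23.8 and 26.9 normalized counts without laser and 70.8 to 128, with a median of 98.1, with laser. In Ceacam1-/- they had 9.59, 12, 31.7 and 35.3 without laser and 80.8 to 409, with a median of 154, with laser. The groups were apart in both genotypes, and the laser libraries of Ceacam1-/- spread over a wider range than those of wild type, with libraries 7, 5 and 6 highest at 409, 294 and 215. After laser the log2 value was higher by 2.21 ± 0.409 in wild type (adjusted p = 0.00183, limma) and 2.99 ± 0.427 in Ceacam1-/- (adjusted p = 0.000325, limma).

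Ly6c2 lies next to Ly6c1, a gene of endothelium and of T cells, and the 2 are hard to tell apart in short reads. Their coding sequences, 393 bases each, differed at 9 positions (97.71% identical), and Ly6c2 shares 48.95% of its 31-base words with Ly6c1 and 53.9% with any other gene. The first 90 bases of the coding sequence, from the GENCODE annotation of GRCm39, hold 6 of the 9 differences, in capitals.
Ly6c2: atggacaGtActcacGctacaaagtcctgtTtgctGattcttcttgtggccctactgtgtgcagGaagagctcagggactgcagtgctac
Ly6c1: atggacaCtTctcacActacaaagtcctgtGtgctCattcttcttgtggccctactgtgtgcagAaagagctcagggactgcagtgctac

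Ly6c1 had a mean of 2877 normalized counts in wild type without laser and 2966 with laser, and of 3493 and 2416 in Ceacam1-/-. Its log2 fold change was -0.07 in wild type and -0.42 in Ceacam1-/- (adjusted p = 0.914 and 0.508, limma), neither called. Ly6c2 had means of 21.2 without and 99.5 with laser in wild type, and of 22.2 and 190 in Ceacam1-/-. As Ly6c1 was far more abundant, its values cannot show whether a small share of its reads was counted as Ly6c2. The value of Ly6c2 rests on the bases that separate these genes and is uncertain to that extent. Of 6 tested Ly6 family genes, which included Ly6a (Sca-1), Ly6e, an interferon-induced antigen, and Ly6h, 0 were called in either direction in either genotype.

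Plac8 (ENSMUSG00000029322, chr5:100701591-100720111, minus strand, 5 exons) encodes a small cysteine-rich protein of monocytes, other leukocytes and several epithelia. Its wild type libraries had 144, 366, 1679 and 2616 normalized counts without laser and 515 to 2128, with a median of 848, with laser. In Ceacam1-/- they had 385, 528, 538 and 5387 without laser and 164 to 6023, with a median of 1151, with laser. The groups overlapped, and the 5 highest of all 24 libraries (15, 28, 22, 19 and 27) were the 5 with the most Krt5. The log2 fold change was 0.34 ± 0.795 in wild type (adjusted p = 0.831, limma) and 0.10 ± 0.83 in Ceacam1-/- (adjusted p = 0.955, limma), with 95% intervals of -1.31 to 1.98 and -1.61 to 1.82. Without these 5 libraries it was 1.77 in wild type (adjusted p = 0.182) and 0.53 in Ceacam1-/- (adjusted p = 0.704, limma). The part of epithelial RNA in these values was not tested.

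**Figure D3:**
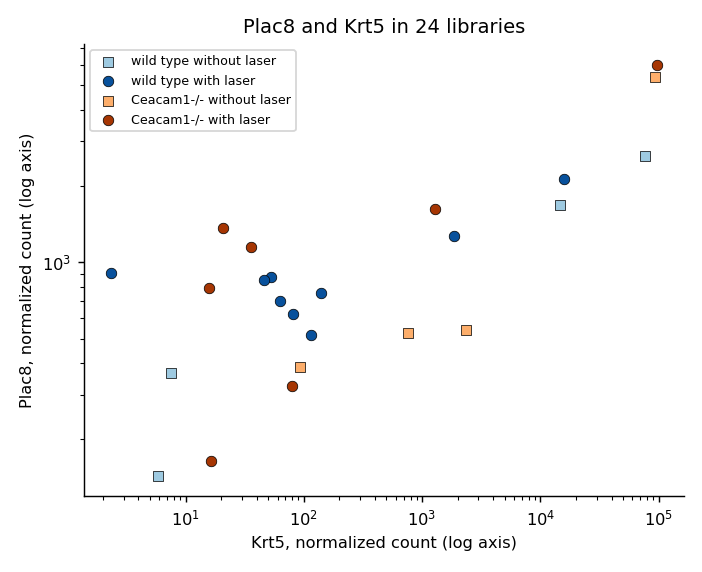
Normalized counts of Plac8 (y axis) against those of Krt5 (x axis) in the 24 libraries, on log axes; squares are libraries without laser and circles libraries with laser. The 5 libraries with Krt5 above 10000 have the 5 highest values of Plac8, with and without laser alike.

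The class A scavenger receptors were both higher after laser in wild type. Msr1 (ENSMUSG00000025044, chr8:40034726-40095714, minus strand, 10 exons) encodes scavenger receptor A of macrophages, which takes up modified lipoproteins. Its wild type libraries had 40.1, 95.6, 119 and 144 normalized counts without laser and 493 to 1165, with a median of 791, with laser. In Ceacam1-/- they had 31, 48.2, 84.8 and 205 without laser and 225 to 1173, with a median of 748, with laser. The groups were apart in both genotypes, though in Ceacam1-/- the photoreceptor-rich libraries 15, 18 and 14 had only 225, 237 and 263, close to the 205 of library 25 without laser. The log2 fold change was 3.12 ± 0.472 in wild type (adjusted p = 0.000218, limma) and 2.84 ± 0.492 in Ceacam1-/- (adjusted p = 0.00229, limma).

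Marco (ENSMUSG00000026390, chr1:120402267-120432753, minus strand, 17 exons) encodes a bacteria-binding scavenger receptor of particular macrophages, such as those of the alveoli and the splenic marginal zone. All 4 wild type libraries without laser were listed at 0 for Marco, and it was above 0 in all 9 with laser, from 0.830 to 24.7 with a median of 5.69. In Ceacam1-/- it was above 0 in 1 of 4 libraries without laser (library 28, 1.31) and in 6 of 7 with laser, up to 46.2 with a median of 5.19. The difference in mean log2(normalized count + 1) was 2.57 in wild type and 2.28 in Ceacam1-/-, a value that depends on the added count of 1. The exact two-sided permutation p was 0.0028 in wild type, where 0.0014 is the smallest this design allows, and 0.0515 in Ceacam1-/-, where it is 0.00303. Marco was the least abundant of the 7 genes, with a median of 2.96 normalized counts per kilobase in wild type with laser, and its values near 1 correspond to very few reads.

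Per kilobase of transcript, the order of the medians in wild type with laser was Retnla (1242), Plac8 (1140), Msr1 (556), Ly6c2 (117), Chil3 (110), Nos2 (30.4) and Marco (2.96). The ranges of Retnla and Plac8 overlapped, at 445 to 2910 and 693 to 2860, as did those of Ly6c2 and Chil3, at 84.6 to 153 and 81.6 to 244. Without laser in wild type the order was Plac8 (1374), Retnla (1328), Msr1 (75.3), Ly6c2 (27.6), Nos2 (16.1), Chil3 (3.98) and Marco (0), so Chil3 passed Nos2 in median level with laser. With laser, neighbours in this order did not overlap between Msr1 and Ly6c2, Chil3 and Nos2, or Nos2 and Marco, and without laser between Retnla and Msr1 or Chil3 and Marco; all other neighbours overlapped.

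Between the genotypes, no member passed the threshold. With laser, 0 of 6 members were called, beside 0.0202% of 19757 tested genes, while 3 of the 6 had an unadjusted p under 0.05 in limma, beside 22.7% of all tested genes. Of these, Retnla and Nos2 were lower and Ly6c2 was higher in Ceacam1-/-. The log2 difference of Ceacam1-/- from wild type with laser was -1.06 ± 0.362 for Retnla, -0.81 ± 0.297 for Nos2 and 0.69 ± 0.321 for Ly6c2, with adjusted p-values of 0.146, 0.161 and 0.214 in limma. For Msr1, Chil3 and Plac8 it was -0.61, -0.37 and 0.10. Lists of cell type genes had median log2 differences on both sides of 0, with 0 genes called. The median was -0.64 for pan-myeloid, -1.41 for skeletal muscle, -1.385 for adipocyte and -1.07 for retinal pigment epithelium genes. It was 0.698 for erythroid and 2.01 for photoreceptor genes. The part of myeloid, muscle, adipocyte, erythroid or pigment epithelium RNA in the members' differences was not tested. The 3 photoreceptor-rich libraries of this comparison were all Ceacam1-/-. Without the photoreceptor-rich libraries the difference was -0.71 for Retnla, -0.28 for Nos2 and 1.12 for Ly6c2, those of Msr1 and Chil3 turned to 0.22 and 0.46, and 1623 genes had an unadjusted p under 0.05 in limma instead of 4479. The difference of Plac8 turned to -0.19 without the Krt5-rich libraries, and no member was called in either fit. The summed value of 4 Y-linked genes was above 1000 in 5 of 9 wild type and 1 of 7 Ceacam1-/- libraries with laser, and in 1 of 4 of each genotype without. Libraries with male RNA were thus unevenly spread between the genotypes with laser, and between laser and no laser in wild type. With the log2 of this sum as a covariate, the difference with laser was -0.79 for Retnla, -0.65 for Nos2 and 0.78 for Ly6c2 (adjusted p = 0.471, 0.477 and 0.455, limma), and 2196 genes had an unadjusted p under 0.05. For Marco the exact permutation p was 0.992.

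Without laser, 0 of 5 members were called, beside 0% of 20057 tested genes. At an unadjusted p under 0.05 in limma there were 307 genes (1.53%) and 0 members. Chil3, with a mean under 10 in these 8 libraries, and Marco were not in this fit. The study, with DESeq2 and sex as a covariate, reported a small set of genes called between healthy choroids. In the fit used here Ceacam1, the deleted gene, was itself not called, so 0 calls do not show that the genotypes were alike. The widest interval belonged to Plac8 (log2 difference 0.34, 95% interval -2.12 to 2.79) and the narrowest to Nos2 (0.44, -0.73 to 1.61). With 4 libraries in each group, these intervals still hold differences of several fold for Plac8 and smaller ones for Nos2. The laser by genotype interaction was called for 0 of 6 members, beside 0% of 19950 tested genes (1241 at an unadjusted p under 0.05 in limma, with Nos2 the 1 member among them). The 95% interval of the interaction was -1.89 to 1.71 for Chil3, -1.69 to 1.13 for Msr1 and -0.45 to 2.00 for Ly6c2.

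Most genes that mark myeloid cells in general were also higher with laser. Of 12 pan-myeloid genes, 11 were higher in wild type and 9 in Ceacam1-/- (median log2 fold change 2.25 and 1.59). Among them, Ptprc, the leukocyte antigen CD45, rose by 2.21 and 1.55 on the log2 scale (adjusted p = 6.79e-05 and 0.00825, limma), and Lyz2, lysozyme of phagocytes, by 2.73 and 2.44 (adjusted p = 0.000129 and 0.00193). Fcer1g, the shared signalling chain of Fc receptors, rose by 2.42 and 1.77 (adjusted p = 9.07e-05 and 0.00708). The summed pan-myeloid value was 10812 to 22363 in wild type without laser and 51516 to 132597 with laser. In Ceacam1-/- it was 10728 to 15570 without laser and 17537 to 95476 with laser. Lyz2 had the highest value of the 12 genes in each group.

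Relative to the mean log2 level of the 12 pan-myeloid genes in the same library, some members were higher with laser, some were lower and others did not pass the test. The 14 comparisons of this kind, 7 genes in both genotypes, are given with exact two-sided permutation p-values that are not adjusted for their number. Chil3 was higher with laser by 2.81 in wild type (exact p = 0.0014, the smallest possible) and by 3.37 in Ceacam1-/- (exact p = 0.00303, the smallest possible). Msr1 was higher by 0.94 (exact p = 0.00559) and 1.31 (exact p = 0.0273). The size for Chil3, whose values without laser were near 0, depended on the setting: it was 1.48 and 1.83 with an added count of 10 and 4.09 and 5.18 against Csf1r alone, with an exact p of at most 0.0286 in every alternative run. Chil3 and Msr1 therefore changed by more than the mean of the pan-myeloid genes in these comparisons.

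Retnla was lower in relation to the pan-myeloid genes, with differences of -2.32 in wild type (exact p = 0.0014) and -2.15 in Ceacam1-/- (exact p = 0.00909). Nos2 was also lower, at -0.89 (exact p = 0.0266) and -1.48 (exact p = 0.00303), and Plac8 was at -1.84 (exact p = 0.0196) and -1.43 (exact p = 0.182). The total of Retnla, which was not called, thus stood beside higher pan-myeloid genes. Ly6c2 differed by 0.03 in wild type (exact p = 0.89) and was higher by 1.46 in Ceacam1-/- (exact p = 0.0242). Marco was at 0.39 (exact p = 0.515) and 0.74 (exact p = 0.303), but with values of 0 in most libraries without laser its difference and sign are set by the added count, and no direction is read from it.

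These differences depend on the reference. Csf1r, the receptor for the macrophage growth factor CSF1, was the 1 pan-myeloid gene not called in wild type (log2 fold change 0.90, adjusted p = 0.186, limma), and it was -0.28 in Ceacam1-/-. Against Csf1r alone, Nos2 was at 0.40 and 0.33 (exact p = 0.331 and 0.512), Retnla was at -1.03 and -0.34 (exact p = 0.115 and 0.652), and Ly6c2 was higher in wild type as well (1.31, exact p = 0.0028). Against the same gene, Plac8 was at -0.56 in wild type and 0.38 in Ceacam1-/- (exact p = 0.491 and 0.803). Msr1 in Ceacam1-/- lost its exact p under 0.05 without library 6, 23, 24 or 28 (0.98 to 1.37, exact p of 0.0524 to 0.0833), and Ly6c2 without 23 or 24 (1.31 and 1.13, exact p = 0.0583 and 0.0667). In wild type, Nos2 and Plac8 lost it without library 22 or 27, at -0.70 and -0.71 for Nos2 (exact p = 0.105) and -1.19 and -1.44 for Plac8 (exact p = 0.0636), both Krt5-rich libraries. Plac8 in Ceacam1-/- passed without library 15 (-2.0, exact p = 0.00952).

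**Figure D4:**
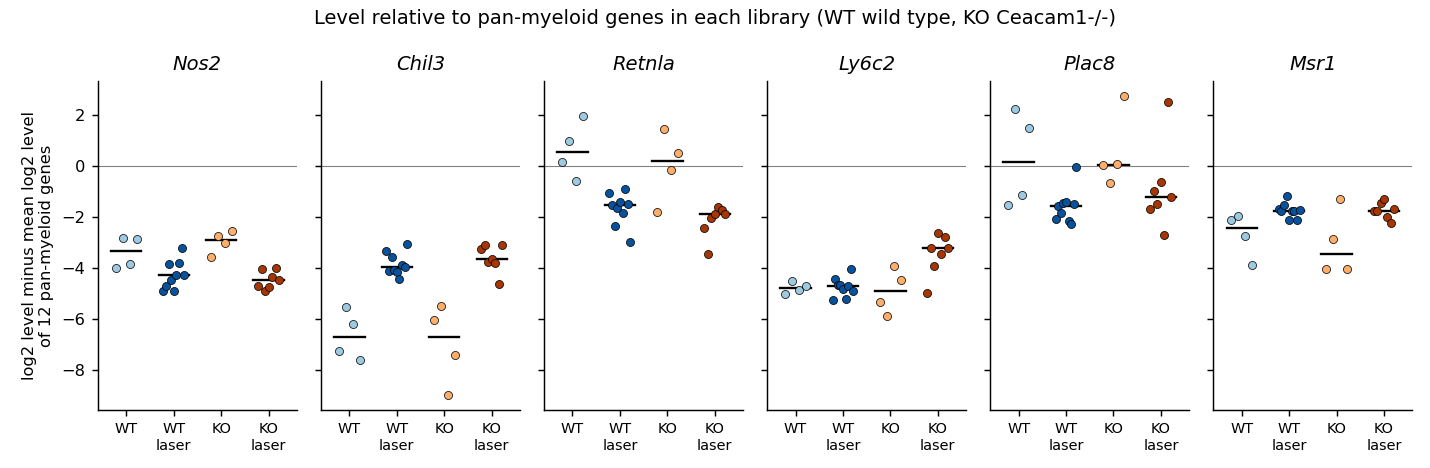
Each point is a library's log2 level of a gene minus the mean log2 level of 12 pan-myeloid genes, by group (WT wild type, KO Ceacam1-/-), with the group's median as a bar and 0 where the gene equals that mean. Chil3 lies higher with laser in both genotypes, by 2.81 and 3.37 on average, Retnla lies lower, at -2.32 and -2.15 of difference, and Ly6c2 is level in wild type.

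Genes of the surrounding pathways were taken from lists of known members, chosen with earlier results of these data known. From each list, the pan-myeloid one included, the 2 genes of lowest p with laser in wild type and the 2 of highest mean are named. Those of lowest p were picked for their p-values in wild type and do not stand for the whole list. Of 11 tested genes of monocyte recruitment, 8 were higher in wild type and 7 in Ceacam1-/- with laser, and none was lower. Ccl2, the main chemokine that draws Ly6C-positive monocytes through CCR2, rose by 3.05 and 2.56 on the log2 scale (adjusted p = 4.86e-05 and 0.00128, limma), and Csf2rb, the shared receptor chain for GM-CSF and interleukins 3 and 5, by 2.37 and 1.42 (adjusted p = 3.19e-05 and 0.0141). Vcam1, which holds leukocytes on endothelium, rose by 1.57 in wild type (adjusted p = 0.0251), with a value of 0.89 in Ceacam1-/- (adjusted p = 0.249), and Icam1 gave 0.90 and 0.09, neither called.

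Of 12 classical monocyte genes, 8 were higher in wild type and 3 in Ceacam1-/-. Ccr2 rose by 2.91 and 2.81 (adjusted p = 5.20e-05 and 0.000325, limma) and Ms4a4c, a membrane protein gene of monocytes, by 2.96 and 2.76 (adjusted p = 0.0017 and 0.00887). Fn1, fibronectin, rose by 2.10 and 1.73 (adjusted p = 0.00204 and 0.0202), while Thbs1, thrombospondin 1, rose by 1.93 in wild type (adjusted p = 0.00881) and had a value of 1.23 in Ceacam1-/- (adjusted p = 0.126). Of 8 tested non-classical monocyte genes, 3 were higher in wild type and 0 in Ceacam1-/-. Cx3cr1, the fractalkine receptor that microglia also carry, rose by 1.96 in wild type (adjusted p = 0.00262) with a value of 1.08 in Ceacam1-/- (adjusted p = 0.121), and Spn, CD43, rose by 1.88 in wild type (adjusted p = 0.0294) with 0.65 in Ceacam1-/- (adjusted p = 0.513). The most abundant genes of the list gave values below 0: Eno3, the muscle form of enolase, -1.28 and -2.10 (adjusted p = 0.265 and 0.0761), and Nr4a1, an immediate early transcription factor, -0.43 and -0.11 (adjusted p = 0.547 and 0.902). Eno3 dominated the list's sum, whose median was 48485 without and 24616 with laser in wild type and 57926 and 12979 in Ceacam1-/-. Whether these changes differed between the genotypes is a matter of the interaction, which limma called for 0 genes.

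The alternative activation genes, to which Chil3 and Retnla belong, and the interferon gamma and LPS genes, to which Nos2 belongs, were counted apart from the members. Of the interleukin 4 and 13 list, 7 of 17 tested genes were higher in wild type and 2 in Ceacam1-/-. Ccl17, a chemokine of alternatively activated macrophages and dendritic cells, rose by 4.86 and 2.87 (adjusted p = 1.05e-06 and 0.00229, limma) and Clec7a, the beta-glucan receptor dectin-1, by 3.26 and 2.34 (adjusted p = 5.60e-05 and 0.00589). The transcription factor Stat6 itself (0.17 and -0.28) and the transglutaminase Tgm2 (0.31 and 0.08) were not called. Of 18 tested genes of the interferon gamma and LPS list, 7 were higher in wild type and 5 in Ceacam1-/-. Acod1, which makes itaconate in activated macrophages, rose by 5.18 and 4.90 (adjusted p = 0.000437 and 0.00275), Ptgs2, the inducible cyclooxygenase, by 2.47 and 1.87 (adjusted p = 0.000218 and 0.0097), and Marcks, an actin-binding protein, by 1.07 and 0.87 (adjusted p = 0.00192 and 0.0216). Acod1 had means of 1.52 and 0.756 without laser, and Ccl17 of 4.33 and 12.8, so the size of their fold changes depends on the added count of 1. The receptor gene Ifngr1 gave 0.46 and 0.23, neither called.

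Of 14 other genes of arginine and polyamine metabolism, 1 was higher in wild type and 0 in Ceacam1-/-. This was Srm, spermidine synthase, at 0.97 (adjusted p = 0.0189, limma) beside 0.73 in Ceacam1-/- (adjusted p = 0.1). Oat, which takes ornithine toward glutamate, and Azin1, an inhibitor of the protein that degrades ornithine decarboxylase, gave 0.19 and 0.47 in wild type and 0.04 and 0.55 in Ceacam1-/-, and Slc7a7, a cationic amino acid exporter, gave 1.21 and 0.64, none of them called. The 1 call of 14 in wild type compares with 4.23% of all tested genes. Of 14 other scavenger receptor genes, 5 were higher in wild type and 3 in Ceacam1-/-. Olr1, the receptor LOX-1 for oxidized lipoproteins, rose by 4.69 and 4.54 (adjusted p = 5.19e-05 and 0.000325) from means of 4.79 and 2.07 without laser, with the same dependence on the added count, and Clec4a2, a C-type lectin of myeloid cells, by 2.46 and 1.97 (adjusted p = 0.000895 and 0.0146). Lgals3, galectin 3, rose by 2.08 in wild type (adjusted p = 0.0296) with 1.56 in Ceacam1-/- (adjusted p = 0.133), and Colec12, a scavenger collectin of endothelium, gave 1.1 and 0.79, neither called.

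These counts were also taken without the 5 photoreceptor-rich libraries and without the 5 with the most Krt5, sets chosen after the data were seen. Without the former, the counts called higher in wild type and in Ceacam1-/- were 11 and 11 of 12 pan-myeloid genes, 6 and 8 of 12 classical monocyte genes and 10 and 10 of 11 recruitment genes. For non-classical monocyte genes they were 3 and 2 of 8, with 1 lower in each genotype, and for resident macrophage genes 2 and 3 of 9. They were 9 and 9 of 17 interleukin 4 and 13 genes, 8 and 10 of 18 interferon gamma and LPS genes, and 5 and 8 of 14 scavenger receptor genes. For arginine and polyamine metabolism they were 2 and 4 of 14, with 1 and 2 lower. Without the keratin-rich libraries, the classical monocyte genes gave 5 and 3 of 12, the interleukin 4 and 13 genes 5 and 4 of 18, the interferon gamma and LPS genes 4 and 5 of 18 and the scavenger receptors 3 and 4 of 14. For recruitment genes the counts were then 6 and 6 of 11, and for non-classical monocyte genes 2 and 0 of 8. Arginine and polyamine metabolism then had 0 calls in either genotype. The background moved as well: 1129 and 1697 of 19596 genes were called higher without the photoreceptor-rich libraries, and 478 and 456 of 19831 without the keratin-rich ones. The part of retina or epithelium in these counts was not tested.

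**Figure D5:**
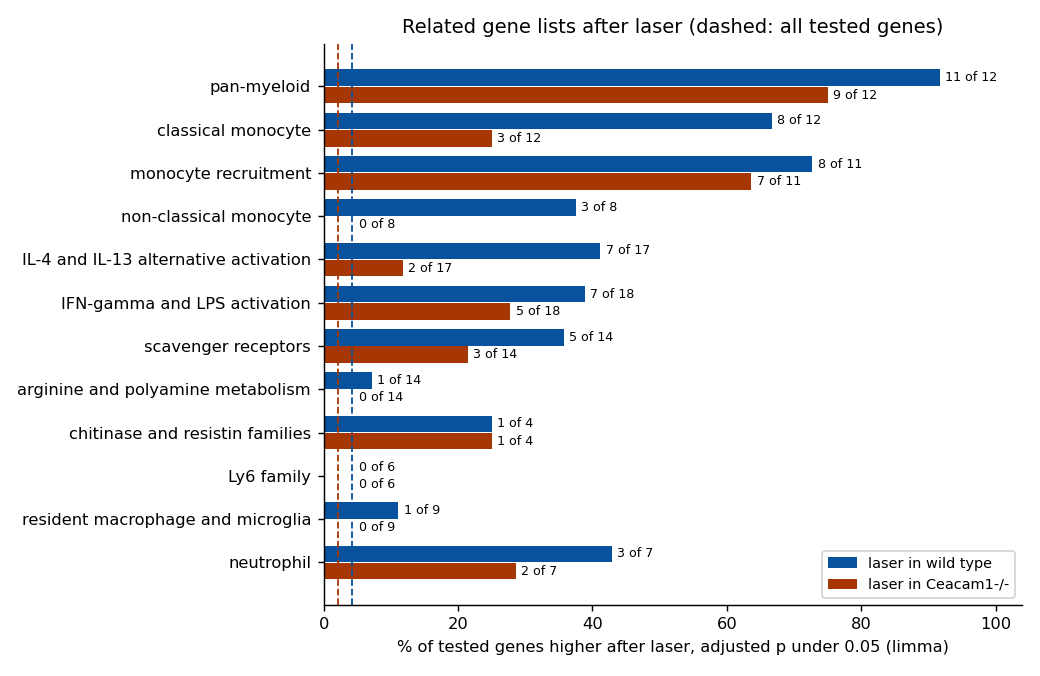
Share of the tested genes of each list that were higher with laser (bars, x axis in percent, with the count of tested genes called beside each bar) in wild type (blue) and Ceacam1-/- choroid (brown); dashed lines give the same share among all tested genes, 4.23% and 2.07%. Pan-myeloid genes lead with 11 and 9 of 12, and the arginine pathway and the Ly6 family have 1 call or none.

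Markers of cell types that could also carry these genes gave a mixed picture. Of 9 genes of resident macrophages and microglia, 1 was higher in wild type and 0 in Ceacam1-/-. Their summed value was 1247 to 1887 without and 2732 to 3509 with laser in wild type, and 872 to 2850 and 1111 to 4543 in Ceacam1-/-, led by Tmem119, a membrane protein gene of microglia. Of 7 tested neutrophil genes, out of 12, 3 were higher in wild type and 2 in Ceacam1-/-. Without the 5 Krt5-rich libraries these counts were 1 and 2. The neutrophil sum had a median of 332 without and 727 with laser in wild type and of 390 and 923 in Ceacam1-/-, and 3 of the 12 genes were at 0 in every wild type library without laser. Its most abundant gene, Ltf, which glandular epithelium makes as well, reached 2075 in library 19 and 1033 in library 15, both rich in Krt5. Lymphocyte genes (10 tested, led by Jchain of plasma cells), eosinophil and mast cell genes (5 tested, led by the tryptase Tpsb2), adipocyte genes (5 tested, led by Cfd, adipsin) and erythroid genes (5 tested, led by the hemoglobin gene Hba-a2) had 0 calls with limma in either genotype. Skeletal muscle genes, led by the actin gene Acta1, were mostly not called. Their sum had a median of 354288 without and 268476 with laser in wild type and of 410142 and 85215 in Ceacam1-/-, over a range of 10971 to 810892. Their median log2 fold change was -0.63 and -2.06, with 0 and 1 of 7 genes called lower, and without the photoreceptor-rich libraries 6 of 7 were called lower in Ceacam1-/-. The part of muscle in the members' changes was not tested. The surface epithelium sum, led by Krt15, ranged from 126 to 489855, and the photoreceptor sum from 2128 to 523187, with 0 calls for either list. The part of these 2 tissues was not tested beyond leaving out the libraries richest in them: without the 5 Krt5-rich or the 5 photoreceptor-rich libraries, 3 members were called in wild type (Chil3, Ly6c2 and Msr1) and 3 in Ceacam1-/-.

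Within the groups, after each group's mean was taken away, the members did not vary as 1 block. Over the 24 libraries, which share a tissue and its dissection, the correlation of log2 values was 0.55 between Nos2 and Ly6c2, and 0.01 between Chil3 and Ly6c2. Plac8 had 0.83 with the surface epithelium sum, 0.72 with the neutrophil sum and 0.19 with the pan-myeloid sum. Chil3 had 0.57 with the adipocyte sum and 0.55 with the pan-myeloid sum. With the pan-myeloid sum it was 0.69 for Msr1 and 0.68 for Marco, and with the surface epithelium sum -0.30 for Msr1. With the photoreceptor sum it was -0.61 for Msr1 and -0.56 for Nos2. Such correlations are descriptions of these libraries.

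The genes most like each member by this measure were of several kinds. For Plac8 they were Adh1, Anxa8 and Emp1, at 0.98, 0.96 and 0.96. For Chil3 they were Ccr1, Plat and Gli3 (0.90, 0.87 and 0.85), of which Ccr1 is a chemokine receptor of monocytes and neutrophils and Plat is the tissue plasminogen activator. For Msr1 they were Lhx6, Treml4 and Plin2 (0.87, 0.86 and 0.85), of which Plin2 coats lipid droplets. For Nos2 they were Vrk2, Adam17 and Pam (0.88, 0.86 and 0.85). For Retnla they were Hoxd8, Lrrc17 and Gm29773 (0.88, 0.85 and 0.85). For Ly6c2 they were Mx2, an interferon-induced gene, Rpl36a-ps1, a ribosomal protein pseudogene, and Or7d10, an olfactory receptor gene (0.82, 0.80 and 0.80). For Marco they were Dock8, a gene of leukocyte migration, Egfros and Egfl8 (0.82, 0.77 and 0.76).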

How the data were processed

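The 7 genes and the related lists were chosen with earlier results of these data known; 1 further gene of the set is not reported here. Libraries were prepared from 10 ng RNA with a kit that copies poly(A) RNA and sequenced in pairs. The authors quantified transcripts with Salmon 1.10.3 against GENCODE vM35 (GRCm39), summed them per gene with tximport and normalized them with DESeq2 1.44.0, so the deposited signal is a normalized count, neither raw nor whole. No column held another series' sample.

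Values were tested with limma 3.58.1 (R 4.3.3, trend, log2(value + 1), mean of at least 10, Benjamini-Hochberg): 1 model of 24 libraries for laser and its interaction with genotype, and the 8 libraries without or the 16 with laser for genotype. The fits were tested on simulated data. Marco and levels relative to pan-myeloid genes had exact permutation tests. Of the deposited gene IDs, 99.1% matched GENCODE vM39. Named genes were the members, Ceacam1, near-identical paralogs, the 2 of lowest p in wild type and the 2 of highest mean in each pathway list, the most abundant gene of each other list and the 3 genes most like each member. Alternatives covered the added count, filter, scaling, weights, model, a Y-linked covariate and left-out libraries. Read depth was not used here, so no counting interval is given.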

Additional observations from a re-analysis of the deposited data

Results flagged for a closer look

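In 27 groups of 4 to 9 libraries, 6 values stood far from the rest by Dixon's test on normalized counts without log. Its chance rate of about 1 in 20 groups holds for normally distributed values, which these were not shown to be. The number of flagged values is therefore not compared with that rate. Plac8 was 2128 in library 19 (wild type with laser), 5387 in library 28 (Ceacam1-/- without laser) and 6023 in library 15 (Ceacam1-/- with laser). Marco was 24.7 in library 1 (wild type with laser), 1.31 in library 28 (Ceacam1-/- without laser) and 46.2 in library 4 (Ceacam1-/- with laser). Libraries 15, 19 and 28 were among the 5 with the most Krt5, and library 1 had the least.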

How the results depend on the processing

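Leaving out 1 library gave 3 to 4 members called higher with laser in wild type and 3 in Ceacam1-/-, with 0 lower. With only the 11 Ceacam1-/- libraries in the fit, which then share no variance with wild type, 1 member (Chil3) was called instead of 3, as Ly6c2 and Msr1 had adjusted p-values of 0.0653 and 0.122 in limma. Array weights called 1 member between genotypes with laser, Ly6c2 (1.3, adjusted p = 0.0394, limma). Array weights raised the calls over all genes with laser in wild type from 1053 to 6505 and in Ceacam1-/- from 742 to 3551. Only the libraries compared gave 2274 and 38, no filter 787 and 437, and the libraries without the most keratin 5 gave 491 and 587 and without the most photoreceptor RNA 1645 and 2923. Between genotypes with laser, the 4 calls became 297 with array weights, 9 with a model of all 24 libraries, 6 without a filter or without the most keratin 5, and 2 with a mean of at least 50 or without the most photoreceptor RNA. Without laser, array weights, a fit without trend and leaving out library 24 each called 1 gene between genotypes instead of 0. Leaving out 1 library gave 479 to 1257 calls with laser in wild type (479 without library 21, 554 without 27), 148 to 2488 in Ceacam1-/- (148 without library 25, 255 without 24, 466 without 5, 2488 without 23) and 4 to 61 between genotypes with laser (61 without library 19, 25 without 17, 7 without 4). The cause of these shifts was not tested.

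The call of Nos2 in wild type also changed, though its log2 fold change stayed at 1.3 without a filter, 1.38 after quantile normalization and 1.35 with the Y-linked covariate (adjusted p = 0.0847, 0.0554 and 0.0624, limma). Chil3, Ly6c2 and Msr1 in wild type and Chil3 in Ceacam1-/- kept direction and call under every alternative run.

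Results that changed direction had not been called, except for Nos2 relative to Csf1r. With laser in wild type, Retnla was 0.89 without the most keratin 5 and -0.45 to 0.32 without 1 library, and Plac8 was -0.53 with array weights, -0.42 without the most photoreceptor RNA and -0.42 to 0.98 without 1 library. In Ceacam1-/-, Nos2 was -0.053 after quantile normalization and -0.22 to 0.33 without 1 library, and Plac8 -0.34 to 0.97. The interaction of Chil3 was 0.068 with an added count of 0.5, 0.20 and 1.35 without the most keratin 5 and photoreceptor RNA, and -0.84 to 0.42 without 1 library. For Plac8 it was 1.57 with array weights, 0.63 without the most photoreceptor RNA and -0.87 to 0.64 without 1 library, for Msr1 0.13 and -0.67 to 0.22, and for Retnla -1.15 to 0.016 without 1 library.

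Between genotypes without laser, array weights gave -0.91 for Plac8 and 0.46 for Msr1, and leaving out the most photoreceptor RNA -0.18 and 0.094. Without 1 library the ranges were -1.08 to 0.087 for Retnla, -0.37 to 0.22 for Ly6c2, -0.54 to 0.97 for Plac8 and -0.83 to 0.066 for Msr1. With laser, Chil3 was 0.28 with array weights and 0.46 without the most photoreceptor RNA, Msr1 0.22 without the most photoreceptor RNA, and Plac8 -0.19 without the most keratin 5 and -0.35 to 0.52 without 1 library.

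Relative to pan-myeloid genes, Nos2 was 0.40 and 0.33 and Plac8 in Ceacam1-/- 0.38 against Csf1r alone. Marco, at 0 in most libraries without laser, changed sign with the added count, from 0.39 and 0.74 to -1.47 and -0.76 (exact p = 0.0014 and 0.0727) with 10, and no direction is read from it. With an added count of 10, Ly6c2 was -0.34 and 0.99 (exact p = 0.109 and 0.0636); in wild type, Ly6c2 against Ptprc alone was -0.004, and -0.057 without the most photoreceptor RNA and -0.058 to 0.12 without 1 library. Without the most photoreceptor RNA, Msr1 and Ly6c2 in Ceacam1-/- were 1.15 (exact p = 0.171) and 1.08 (exact p = 0.229); without the most keratin 5, Msr1 in Ceacam1-/- was 1.06 (exact p = 0.0833), Plac8 there -1.26 (exact p = 0.0357), and Nos2 and Plac8 in wild type were -0.34 and -0.45 (exact p = 0.467 and 0.178). No paired analysis was possible because the groups share no replicate numbers.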
